A study of Mus musculus with 12 samples.

Results

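The genes described here are those of the adult hemoglobin chains, Hba-a1 and Hba-a2 (alpha) and Hbb-bs and Hbb-bt (beta), together with Alas2, the erythroid enzyme that starts heme synthesis. They were taken by symbol from the table, and 5 of its 19312 genes met the rule. The set was selected on earlier results of these data, in which Hbb-bs and Hba-a2 were lower in memantine-treated than in vehicle-treated wild-type mice. RNA was sequenced from the brains of 12 male C57BL/6N mice on postnatal day 25, with 1 brain per library and 3 mice in each of 4 groups. Wild-type mice (WT) and mice that lack exons 6 and 7 of both copies of Shank2 (KO), the gene of a scaffold protein of excitatory synapses, were given memantine, an NMDA receptor blocker (Mem), or its vehicle (Veh). Dosing was oral, with 2 doses daily between postnatal days 7 and 21, memantine at 20 mg/kg, and the vehicle was 0.1% saccharin, which all 4 groups therefore received. The vehicle groups are called WT-Veh and KO-Veh, and the memantine groups WT-Mem and KO-Mem. The deletion is carried in the germ line and is not limited to a cell type, and the labels name whole brain where the methods name forebrain without the cerebellum and the brain stem beneath it.

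Hemoglobin is a tetramer of alpha and beta chains that each hold a heme group, and it fills red blood cells. Mouse red blood cells have no nucleus, but young ones, the reticulocytes, still carry hemoglobin mRNA, so that blood left in a tissue brings this mRNA with it. Some neurons and glia are also known to make hemoglobin chains at low levels. The methods describe no perfusion of the vessels. How much blood each brain held was not measured, and in bulk tissue fewer cells of a type and less RNA per cell cannot be told apart.

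The deposited values are estimated read counts per gene after normalization between mice. The median of the lowest nonzero values, a rough guide to 1 read, ran from 0.874 to 1.13 in the 12 mice. The relative depth derived from it ran from 0.89 to 1.15. Only values near 1 entered that median, so that neither the worth of a read nor the depth was measured. Shank2 itself lay between 7156 and 8548 in the WT mice and between 2706 and 3178 in the KO mice, so that every library matched its genotype label. KO-Veh replicate 3 stood apart in the summed level of 10 genes of cerebellum and hindbrain, 9055 against 5705 to 6518 in the other 11 mice. The labels and the header gave no batch. That the samples came from separate mice is stated by the methods.

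In GRCm38, Hbb-bs lies on the minus strand at chr7:103826534-103828096 and Hbb-bt on the same strand at chr7:103812524-103813996. Hba-a1 and Hba-a2 lie on the plus strand at chr11:32283511-32284465 and chr11:32296489-32297298. Alas2 is on the X chromosome, at chrX:150547375-150570638 on the plus strand. Shank2 is also on chromosome 7, 40.2 Mb from Hbb-bs.

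The 2 genes of each pair are near-identical copies. The coding sequences of Hbb-bs and Hbb-bt are 441 bases long and differ at 1 base, C417T (counted from the A of the start codon, Hbb-bs first). Those of Hba-a1 and Hba-a2 are 426 bases long and differ at 1 base, C381T (Hba-a1 first). Coding bases 402 to 432 of the beta pair and 366 to 396 of the alpha pair are printed from GENCODE M21 to show how little separates the copies, with the differing base in capitals.
Hbb-bs: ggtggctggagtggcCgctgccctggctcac
Hbb-bt: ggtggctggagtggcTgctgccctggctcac
Hba-a1: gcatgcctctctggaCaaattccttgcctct
Hba-a2: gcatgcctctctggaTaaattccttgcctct

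Of the 31-base words of the transcripts, 66.9% of those of Hbb-bs also occur in Hbb-bt and 59.4% of those of Hbb-bt in Hbb-bs. In the alpha pair the shares were 71.3% of Hba-a1 and 91.0% of Hba-a2. Many reads therefore fit both copies and were divided by Salmon, so that the level of a copy within its pair is uncertain. The sum of a pair does not depend on that division.

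The 250 bases before the RefSeq start of each gene (GRCm38.p6) are shown as a description. The GENCODE gene spans given above reach into these windows, since RefSeq places each start further inside the gene. Whether these sequences have a part in the levels of the genes was not tested. Capitals mark matches on either strand to 5 motifs. CACCC is the box bound by erythroid Kruppel-like factors, and CCAAT is a common promoter box. AGATAA is a form of the motif of erythroid GATA factors, as is TGATAA. The last, ATATAA, is a form of the core promoter motif bound by the general transcription machinery, called here the core motif. Hbb-bs is at chr7:103827929-103828178 and Hbb-bt at chr7:103813924-103814173, both on the minus strand. Hba-a1 is at chr11:32283422-32283671 and Alas2 at chrX:150547167-150547416, both on the plus strand.
Hbb-bs: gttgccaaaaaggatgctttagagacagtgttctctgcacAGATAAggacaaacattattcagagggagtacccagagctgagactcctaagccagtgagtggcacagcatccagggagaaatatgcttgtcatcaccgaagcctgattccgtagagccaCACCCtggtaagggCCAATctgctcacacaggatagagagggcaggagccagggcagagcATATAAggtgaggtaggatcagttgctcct
Hbb-bt: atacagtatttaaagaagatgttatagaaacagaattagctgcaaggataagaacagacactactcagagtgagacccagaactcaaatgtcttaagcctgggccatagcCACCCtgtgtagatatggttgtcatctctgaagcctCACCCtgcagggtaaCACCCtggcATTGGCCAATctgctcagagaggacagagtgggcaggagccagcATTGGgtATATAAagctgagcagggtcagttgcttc
Hba-a1: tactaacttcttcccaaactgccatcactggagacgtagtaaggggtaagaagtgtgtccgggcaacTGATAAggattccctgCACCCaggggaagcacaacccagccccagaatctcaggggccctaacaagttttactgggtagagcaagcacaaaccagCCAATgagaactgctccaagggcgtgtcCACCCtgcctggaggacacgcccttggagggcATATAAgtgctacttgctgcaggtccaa
Alas2: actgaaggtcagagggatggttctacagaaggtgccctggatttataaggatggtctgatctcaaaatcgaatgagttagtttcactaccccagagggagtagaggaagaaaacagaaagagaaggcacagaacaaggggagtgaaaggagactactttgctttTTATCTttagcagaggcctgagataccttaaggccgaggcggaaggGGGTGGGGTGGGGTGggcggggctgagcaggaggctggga

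The window of Hba-a2 shares an unbroken run of 247 bases with that of Hba-a1. All 4 chain genes hold CACCC, the CCAAT box and the core motif, the last at 28 to 31 bases before the start. Alas2 holds 3 CACCC and 1 AGATAA on the other strand, and neither the CCAAT box nor the core motif. Hbb-bt also holds CCAAT on the other strand, where it reads ATTGG. Of 32851 promoters of the same length, 52.0% hold CACCC, 33.8% CCAAT, 9.10% ATATAA, 9.99% AGATAA and 7.94% TGATAA. A match is a description of the letters and not of binding.

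Hbb-bs, the beta gene with the higher estimated level, had normalized values of 6426, 8331 and 7169 under WT-Veh. WT-Mem mice had 4163, 4483 and 4942. Among KO-Veh mice the values were 4534, 6325 and 2639, and KO-Mem mice had 1654, 2164 and 3970. The WT-Veh mice were the highest as a group, and the KO mice differed among themselves by more than the WT mice did, with a coefficient of variation of 41.0% for KO-Veh and 46.9% for KO-Mem against 13.1% for WT-Veh and 8.65% for WT-Mem.

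Hbb-bt, the beta gene with the lower estimated level, had WT-Veh values of 1172, 1621 and 1134 and WT-Mem values of 834, 822 and 819. The KO-Veh values were 634, 1138 and 230 and the KO-Mem values 172, 251 and 711, a 9.44-fold span from the lowest mouse to the highest. The 3 WT-Mem mice lay within 1.02-fold of each other, and the 3 KO-Veh mice within 4.96-fold.

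Hba-a1 had WT-Veh values of 4575, 6718 and 4456, WT-Mem values of 3403, 3519 and 3678, KO-Veh values of 3899, 4626 and 2035, and KO-Mem values of 1666, 2155 and 3230. Hba-a2 had WT-Veh values of 7107, 9435 and 6504, WT-Mem values of 4747, 4942 and 5178, KO-Veh values of 4880, 6462 and 2570, and KO-Mem values of 2100, 2722 and 4459. For both alpha genes KO-Veh replicate 3 and KO-Mem replicates 1 and 2 were the 3 lowest mice, as they were for both beta genes.

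Alas2 was far lower than the chains, with WT-Veh values of 199, 214 and 184, WT-Mem values of 153, 128 and 193, KO-Veh values of 229, 213 and 93.3, and KO-Mem values of 33.3, 122 and 158. Its highest mouse was a KO-Veh mouse and its lowest a KO-Mem mouse, and the ranges of all 4 groups overlapped except those of WT-Veh and KO-Mem.

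**Figure D1:**
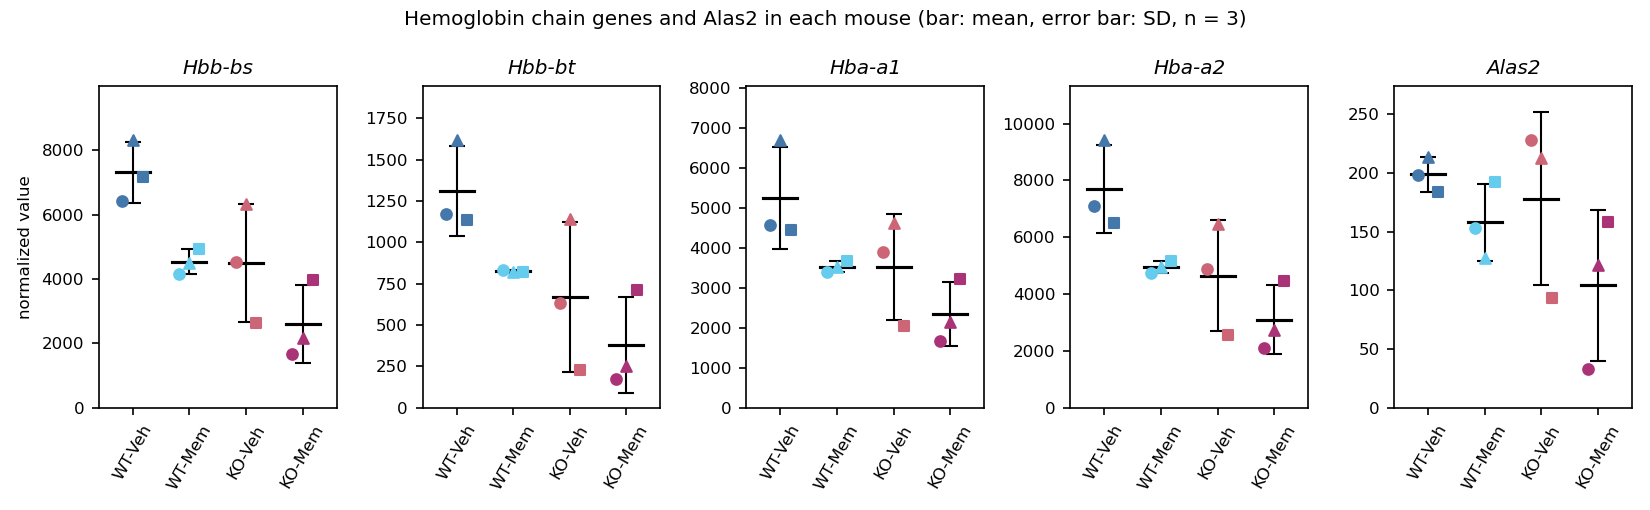
Normalized value (vertical axis, from 0) of each gene in each of the 12 mice, with the group mean as a bar and the SD as an error bar (n = 3), and a marker shape for each replicate number. For the 4 chain genes WT-Veh is the highest group, WT-Mem and KO-Veh have similar means, and KO-Mem is the lowest, with Hbb-bs means of 7309, 4529, 4499 and 2596.

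For each chain gene the group means stood in 1 order, with WT-Veh highest, then WT-Mem, then KO-Veh, and KO-Mem lowest. Mean Hbb-bs was 7309 ± 960 (SD, n = 3), 4529 ± 392, 4499 ± 1844 and 2596 ± 1217 in that order. The middle groups, WT-Mem and KO-Veh, cannot be ordered, since the KO-Veh mice lay on both sides of the WT-Mem mice for each chain gene. Alas2 had the order WT-Veh, KO-Veh, WT-Mem and KO-Mem, with means of 199 ± 15, 178 ± 74.0, 158 ± 32.7 and 104 ± 64.2.

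Per kilobase of the longest coding transcript, the scale on which genes can be compared, Hba-a2 had the highest level of the 5, with a mean of 9192 over the 12 mice (rank 109 of 19312 genes). Hbb-bs followed with 7537 (rank 153), then Hba-a1 with 5241 and Hbb-bt with 1131. Alas2 reached 78.5 per kilobase (rank 11187).

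Over the 12 mice, the chain genes varied more than almost all genes with a mean of 500 or more. That spread includes the differences between groups, among them the memantine difference in WT mice on which the set was chosen. The ranking is therefore a description and no separate evidence. The SD of the log2 value over the 12 mice was 0.71 for Hbb-bs, 1.04 for Hbb-bt, 0.57 for Hba-a1 and 0.64 for Hba-a2. Each was above that of at least 99.7% of the 8784 genes with a mean of 500 or more. Alas2, which has a mean of 160 and is not among those genes, had an SD of 0.76.

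The sum of the 4 chains ran from 5592 in KO-Mem replicate 1 to 26106 in WT-Veh replicate 2, a 4.67-fold span, and made up from 0.0182% to 0.0837% of all values of a mouse. Its group means were 21550 ± 3946 (SD, n = 3) for WT-Veh, 13843 ± 738 for WT-Mem, 13324 ± 5565 for KO-Veh and 8418 ± 3527 for KO-Mem. In 4 of the 6 KO mice the sum was below that of every WT mouse.

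The difference between genotypes was tested over both treatments, in a model with a genotype and a treatment term on all 12 mice. All 4 chain genes were lower in KO mice, and Alas2 did not pass the test. Of the 17655 genes tested, 1907 were called (10.8%), and 1044 were called lower in KO mice (5.91%). Among the 5 members 4 were called lower, but the chain genes rose and fell together and share reads within each pair. Their calls are therefore not separate observations and are not weighed against that share. The members were proposed with the memantine difference in WT mice known. In the balanced fit of all 12 mice the genotype estimate does not depend on that difference. Its SE and p also use the spread between mice, WT mice included, and are not free of that choice. With a mouse left out, the fit is no longer balanced.

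Hbb-bs fell by 0.84 on the log2 scale (SE 0.20, 95% interval -1.26 to -0.42, limma adjusted p = 0.02), which is 1.79-fold lower in KO mice. It was below the lowest WT mouse in 4 of 6 KO mice. Hba-a2 fell by 0.78 (SE 0.20, limma adjusted p = 0.0245), with 4 of 6 KO mice below every WT mouse.

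Hbb-bt had the largest change of the 5, a fall by 1.31 on the log2 scale (SE 0.34, limma adjusted p = 0.0267) or 2.48-fold, and 5 of 6 KO mice were below every WT mouse. Of the 17655 genes, 34 had a more negative estimate than Hbb-bt. The same count was 145 for Hbb-bs, 184 for Hba-a2, 311 for Hba-a1 and 445 for Alas2. The estimate of Hbb-bt also rests on the division of reads within the beta pair, and the pair sums were not tested. Hba-a1 fell by 0.64 (SE 0.18, limma adjusted p = 0.0387), with 4 of 6 KO mice below every WT mouse. The median log2 difference over all genes was 0.0035.

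Alas2 was at -0.55 (SE 0.32, 95% interval -1.22 to 0.12, limma adjusted p = 0.26), with 3 of 6 KO mice below every WT mouse. Without KO-Mem replicate 1 it was at -0.22. Its interval includes the estimates of Hbb-bs, Hba-a1 and Hba-a2, so that a difference of the size seen in those chains was neither detected nor excluded for Alas2.

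Exact two-sided permutation of the genotype labels within each treatment, an alternative chosen after the data had been seen, gave unadjusted p = 0.005 for Hbb-bs and for Hba-a2, the smallest that its 400 arrangements allow. The same exact test gave p = 0.01 for Hbb-bt, 0.015 for Hba-a1 and 0.25 for Alas2.

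Calls other than that of Hbb-bs depended on single mice. When each mouse was left out in turn, Hbb-bs was called in 12 of 12 fits (adjusted p from 0.00384 to 0.0497), Hba-a2 in 8, Hbb-bt in 6 and Hba-a1 in 5. Hba-a2 lost its call without WT-Veh replicate 2, WT-Mem replicate 3, or KO-Mem replicate 1 or 2. Hbb-bt lost it without WT-Veh replicate 2, WT-Mem replicate 1 or 3, KO-Veh replicate 3, or KO-Mem replicate 1 or 2, and Hba-a1 without those 6 mice or WT-Mem replicate 2. Without KO-Veh replicate 3, the mouse with the high cerebellum and hindbrain level, the log2 differences were -0.70 for Hbb-bs, -0.61 for Hba-a2, -1.04 for Hbb-bt and -0.48 for Hba-a1.

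**Figure D2:**
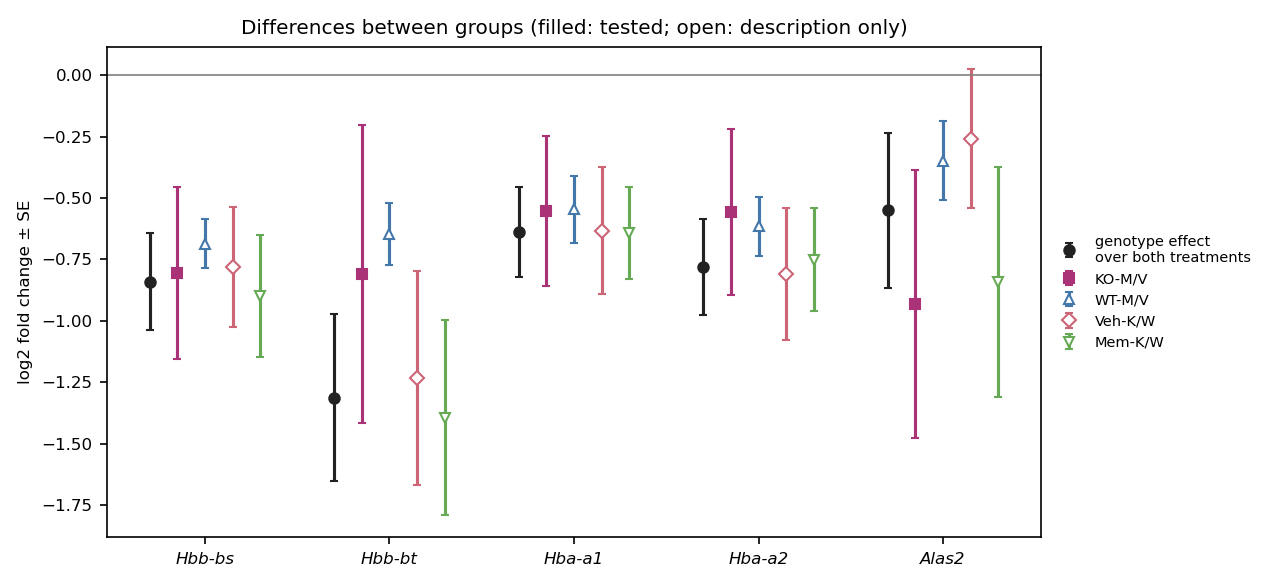
Log2 fold change of each gene with its moderated SE (vertical axis) in the 2 tested comparisons (filled) and in the 3 others, which are descriptions only (open). Every estimate shown lies below 0, and the genotype estimates of the 4 chains run from -1.31 (Hbb-bt) to -0.64 (Hba-a1).

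The memantine difference within KO mice (KO-M/V) shares no mouse with the comparison in WT mice that was known when the genes were chosen. None of the 5 genes was called, nor was any of the 17707 genes tested (0%) by limma, while 1573 genes (8.88%) had an unadjusted p under 0.05. Hbb-bs was at -0.80 (SE 0.35, 95% interval -1.59 to -0.01, limma adjusted p = 0.56, unadjusted 0.0467), with KO-Mem replicate 3 above KO-Veh replicate 3.

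Hbb-bt was at -0.81 (SE 0.61), Hba-a1 at -0.55 (SE 0.31), Hba-a2 at -0.56 (SE 0.34) and Alas2 at -0.93 (SE 0.54), with limma adjusted p from 0.593 to 0.669. The values of the groups overlapped for all 5 genes, while 6.82% of all genes were lower without overlap, and every 95% interval except that of Hbb-bs included 0. Leaving out 1 mouse moved these estimates, in some fits by more than 1.5 times, and called none of them. Alas2 was at -0.26 without KO-Mem replicate 1. Without KO-Veh replicate 2, Hbb-bt was at -0.28, Hba-a1 at -0.32 and Hba-a2 at -0.27, and without KO-Veh replicate 3 they were at -1.44, -0.91 and -0.93. Hbb-bs was at -0.51 without KO-Veh replicate 2 and at -1.16 without KO-Mem replicate 3. Without KO-Mem replicate 3 the others were at -1.40 (Hbb-bt), -0.81 (Hba-a1), -0.86 (Hba-a2) and -1.36 (Alas2).

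The other comparisons are given as descriptions. In WT-M/V, the comparison known when the genes were chosen, the log2 differences were -0.69 for Hbb-bs, -0.65 for Hbb-bt, -0.55 for Hba-a1, -0.61 for Hba-a2 and -0.35 for Alas2. The 3 WT-Mem mice were below the 3 WT-Veh mice for each of the 4 chains but not for Alas2. Over all 17564 genes, 5.19% were lower without overlap in that comparison.

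Between genotypes under vehicle (Veh-K/W) the log2 differences were -0.78 for Hbb-bs, -1.23 for Hbb-bt, -0.63 for Hba-a1, -0.81 for Hba-a2 and -0.26 for Alas2. Hbb-bs and Hba-a2 did not overlap between the groups, as did not 10.7% of all genes in that direction. Without KO-Veh replicate 3 the estimates moved to -0.44, -0.60, -0.28, -0.43 and 0.15.

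Between genotypes under memantine (Mem-K/W) the log2 differences were -0.90 for Hbb-bs, -1.39 for Hbb-bt, -0.64 for Hba-a1, -0.75 for Hba-a2 and -0.84 for Alas2. The 4 chains did not overlap between the groups, against 13.5% of all genes in that direction. These comparisons share WT-Veh, WT-Mem or KO mice with the ones above and are no separate evidence. Of the 17655 genes, 0 were called (0%) by limma for the genotype by treatment interaction, and 840 (4.76%) had an unadjusted p under 0.05. Interaction estimates were -0.12 for Hbb-bs, -0.16 for Hbb-bt, -0.01 for Hba-a1, 0.06 for Hba-a2 and -0.58 for Alas2, with SEs from 0.38 to 0.70.

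The chain genes rose and fell together from mouse to mouse. Over the 12 mice, the 6 pairs of chain genes had Pearson's r from 0.97 (Hba-a1 with Hbb-bt) to 0.99 (Hba-a1 with Hba-a2) on the log2 scale, and Spearman's rho from 0.89 to 0.98. Permutation tests gave adjusted p from 2e-05 to 3.33e-05 over 10 pairs for r, where 1e-05 unadjusted is the smallest that the permutations allow. The pairs between alpha and beta genes, which share no 31-base word where this was compared (Hba-a1 with Hbb-bs), had r of 0.98 for Hbb-bs with Hba-a1 and 0.98 for Hbb-bs with Hba-a2.

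Those correlations contain the differences between groups. After the group means were removed, r was between 0.95 and 0.99 for the 6 pairs of chains, and exact permutation within groups gave adjusted p from 0.00772 to 0.0132. Without the 2 mice farthest from the median of the gene on the horizontal axis, r was 0.93 or more in all 6 pairs.

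Alas2 followed the chains less closely, with r from 0.83 to 0.85 over the 12 mice (permutation adjusted p from 7.14e-05 to 0.00041) and rho from 0.66 to 0.89. With group means removed, r was 0.80 with each alpha gene (exact permutation adjusted p of 0.0116 with Hba-a1 and 0.0164 with Hba-a2). It was 0.82 with Hbb-bs (exact permutation adjusted p = 0.0763) and 0.79 with Hbb-bt (0.106), so that within groups the relation to the beta genes did not pass the test. Values of 1 mouse share its library and its normalization.

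The proportions between the genes also differed from mouse to mouse. The sum of the alpha genes over that of the beta genes ran from 1.32 in WT-Veh replicate 3 to 2.06 in KO-Mem replicate 1. Its group means were 1.49 ± 0.16 (SD, n = 3) for WT-Veh, 1.59 ± 0.05 for WT-Mem, 1.6 ± 0.11 for KO-Veh and 1.91 ± 0.23 for KO-Mem, and the ranges of neighbouring groups in this order overlapped.

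Hbb-bt took from 8.0% to 10.4% of the beta sum in the 3 mice with the lowest chain sums and from 12.3% to 16.7% in the other 9. Hba-a1 took 44.2% of the alpha sum in each of the same 3 mice and from 39.2% to 44.4% in the others. Both shares rest on the division of reads between near-identical copies.

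Alas2 per 1000 of the chain sum was 5.95 in KO-Mem replicate 1 and 16.7 in KO-Mem replicate 2, the lowest and the highest of the 12 mice. The 3 mice with the lowest chain sums thus had no common Alas2 proportion.

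**Figure D3:**
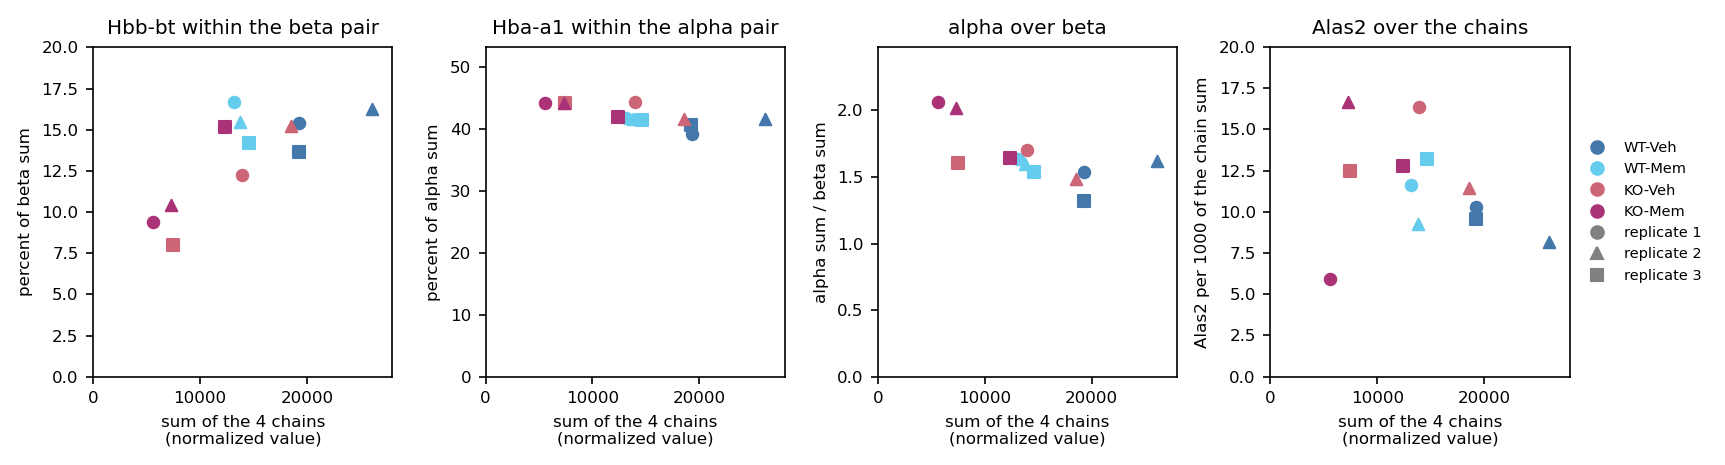
Proportions between the genes (vertical axes, from 0) against the sum of the 4 chains (horizontal axes, normalized value) in each of the 12 mice. The 3 mice with the lowest chain sums have the 3 lowest Hbb-bt shares, 8.0% to 10.4%, while the Alas2 proportion of those mice spans 5.95 to 16.7.

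The other genes of the pathway were read from lists. Of 8 further enzymes of heme synthesis, 1 was called in the genotype effect: Uros, which closes the porphyrin ring, fell by 0.36 on the log2 scale (limma adjusted p = 0.0149). The median log2 difference of the 8 was -0.09, and Alas1, the housekeeping counterpart of Alas2, was at -0.03 with a mean of 1827. Of 4 genes of heme breakdown, 0 were called in limma, with a median of -0.10, and Hmox1, the inducible heme oxygenase, was at -0.17 with a mean of 101.

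Other globins did not share the pattern in these values. Ngb (neuroglobin) was at -0.04 in the genotype effect with a mean of 251, and Cygb (cytoglobin) at 0.01 with a mean of 1636, and neither was called. Their r with the chain sum was -0.20 and 0.05. Hbq1a, a theta globin gene, had a mean of 17.4 and was at 0.48 without a call. The embryonic chains Hba-x, Hbb-y and Hbb-bh1 were not analysed here.

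Of 44 genes of erythroid cells, 28 were tested. In the genotype effect 6 of them were lower in KO mice and 1 was higher, where 5.91% of all genes tested were called lower, and the median log2 difference of the list was -0.10. Genes that define red cell precursors, among them Ahsp, Epb42, Rhag, Klf1, Gata1, Hemgn and Car1, were not analysed here. Slc4a1, the band 3 anion exchanger of the red cell membrane, had a mean of 14.2, was listed at 0 in 1 mouse, and was at -1.03 without a call (limma adjusted p = 0.276).

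Of the 6 that were lower, Isg20 (an exonuclease) fell by 0.94 on the log2 scale from the lowest mean level of the 6, 22.7. Car2, a carbonic anhydrase that oligodendrocytes also make, fell by 0.55, Dmtn (dematin, a membrane skeleton protein) by 0.32, and Slc25a37 (mitoferrin, the mitochondrial iron carrier) by 0.31. Cat (catalase) fell by 0.28 and Prdx2 (a peroxidase) by 0.28, with limma adjusted p from 0.00647 to 0.0313 over the 6. These 5, with means from 1088 to 8921, are also expressed by brain cells. The gene that was higher in KO mice, Tfrc, the transferrin receptor that takes up iron, rose by 0.47 (limma adjusted p = 0.026) and had r of -0.90 with the chain sum.

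The genes whose log2 values followed the chain sum most closely over the 12 mice were Crocc (r = 0.97), Rexo2 (0.96), St6galnac4 (0.96), Isg20 (0.95), Kcnj13 (0.95), Gyg (0.95), Myh7 (0.95), Tor1b (0.95), Pygb (0.95) and Tmem14a (0.95). The most negative were Brd3 (r = -0.95), Brsk2 (-0.95), Gm43398 (-0.94), Zfp46 (-0.94) and Rtf1 (-0.94). Each is the extreme of 17650 genes, of which 925 (5.24%) had r above 0.8, and the median r was -0.01.

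Most of these genes changed far less than the chains. For 1 log2 unit of the chain sum, Crocc changed by 0.39, Rexo2 by 0.28 and Pygb by 0.19, whereas Isg20 changed by 0.96, the nearest to an equal change. Kcnj13, a potassium channel of the choroid plexus, changed by 0.51 and Myh7, a slow muscle and cardiac myosin, by 0.63.

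Lists of other blood cells differed from one another. The summed neutrophil list (8 genes) lay between 166 and 245 in the 9 mice outside KO-Mem and between 241 and 472 in KO-Mem, the group with the lowest chains, and 0 of its 5 tested genes were called by limma in the genotype effect. Of 5 tested platelet genes, 0 were called, with a median of 0.23. Ighm, the heavy chain of IgM made by B cells, fell by 1.45 on the log2 scale (limma adjusted p = 0.00541) and was 1 of 2 lymphocyte genes tested. The other, Cd4, was at 0.15 without a call (limma adjusted p = 0.53). Cd3e, Cd8a and Ms4a1 were not analysed here.

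Some markers of the vessel wall, the meninges and the choroid plexus were also lower in KO mice. Their counts stand beside the 5.91% of all genes tested that were called lower. Of 20 genes of brain endothelium, 9 were called lower, with a median of -0.22, among them Tie1 (-0.42), Emcn (-0.65) and Cldn5 (-0.30). Of 12 pericyte and mural genes, 4 were called lower, with a median of -0.24, among them Rgs5 (-0.55). Of 10 meningeal fibroblast genes, 3 were called lower, with a median of -0.23, among them Col3a1 (-0.78). Estimates were below 0 for 18 of 20 endothelial, 11 of 12 mural and 8 of 10 meningeal genes. Those above 0 were Vwf (0.15), Slco1a4 (0.04), Notch3 (0.07), Mgp (0.22) and Aldh1a2 (0.23), none of them called. Of 9 choroid plexus genes 1 was called lower, Enpp2 (-0.37), while Ttr (transthyretin), the most abundant, was at -0.25 without a call.

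The summed choroid plexus list ran from 13751 to 24757 in KO-Mem, from 20371 to 27157 in KO-Veh, from 24422 to 25718 in WT-Mem and from 24502 to 27487 in WT-Veh. Of the lists without members it had the highest r with the chain sum, 0.90, before meningeal fibroblasts with 0.86. The lists of oligodendrocytes, heme synthesis, lymphocytes, endothelium, monocytes and erythroid cells followed, with r from 0.75 to 0.79. Of 10 oligodendrocyte genes 7 were called lower, with a median of -0.28 and a summed level from 252443 to 427610 over the 12 mice. The part of these cell types, and of the dissection, in the chain values was not tested.

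Neuron and astrocyte lists moved less with the chains, with r of 0.43 and 0.44 for their sums. Of 10 neuron genes 2 were called lower and 1 higher, of 9 astrocyte genes 3 lower, of 10 microglia genes 1 lower, and of 3 tested monocyte genes 1 lower. A count of 1 in 9 or 10 genes is near the share over all genes. All 10 microglia genes nevertheless had estimates below 0, with a median of -0.23. Unlike the neuron and astrocyte sums, the microglia sum had r of 0.74 with the chain sum. For broader measures, the share of the 15 mitochondrially encoded genes was from 3.07% to 3.45% of a mouse's sum in KO and from 3.42% to 4.55% in WT. The share of genes with transcripts under 1 kb, the members left out, was from 4.04% to 4.26% in KO and from 4.17% to 5.06% in WT. Their part in the chain values was not tested either.

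**Figure D4:**
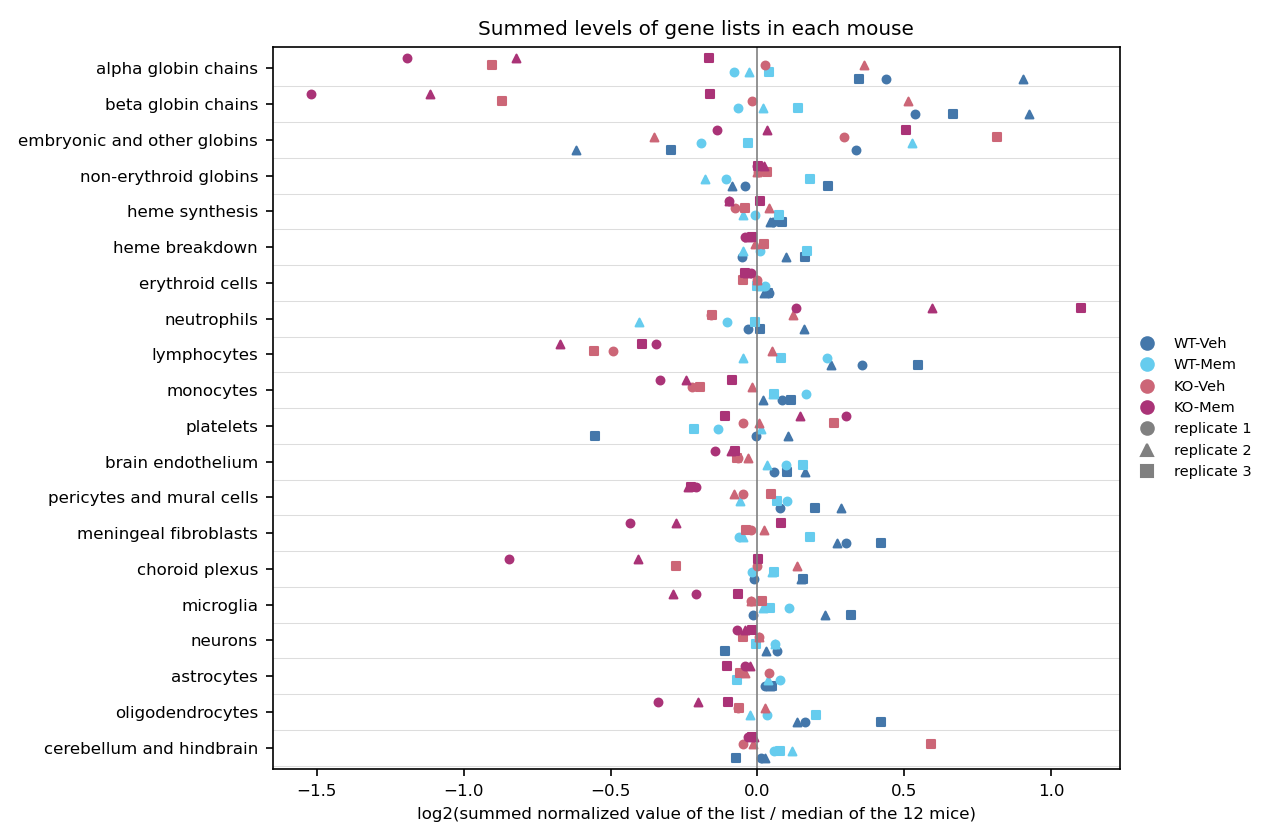
Summed level of each gene list in each of the 12 mice, as log2 of the sum over its median (horizontal axis). Alas2 is not drawn as a list of its own. The choroid plexus, meningeal and oligodendrocyte lists are lowest in KO-Mem replicate 1, the mouse with the lowest chain sum.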

How the data were processed

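The authors sequenced poly-A RNA and deposited signal values per gene, made with Salmon 1.1.0 on GRCm38 transcripts with GC bias correction, imported with tximport and normalized with DESeq2, as R 3.6.2 and DESeq2 1.26.0 in the submitters' processing notes have it. They are not logged, the annotation release is not given in the sources used here, and whole reads could not be recovered (25.5% of low values were whole multiples within 0.05), so no count model was run. The column sums (30373849 to 31199251) are not depths.

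From them, limma 3.58.1 (R 4.3.3, eBayes with trend) was fitted to log2(value + 1) for genes with a mean of at least 10, with Benjamini-Hochberg adjustment over all genes tested, and genes under 0.05 were called. The scale understates changes of low genes. Fits were tested on simulated data with the same dispersion for every gene. That dispersion was below the spread of the chain genes in KO mice, so the test does not cover genes as variable as these. Correlations used 100000 permutations. Symbols, positions and transcripts came from GENCODE M21 (19295 of 19312 genes matched) and promoters from RefSeq, where 5 of 5 members matched. Named were the members, called or leading genes of lists, and the 10 highest and 5 lowest correlations with the chain sum; examples beyond that were chosen after their values were seen. The members and lists were chosen with earlier results of these data known. Alternatives were other pseudocounts, filters and scalings, a replicate block, a joint fit, and each mouse left out.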

Additional observations from a re-analysis of the deposited data

How the results depend on the processing

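The 4 chain genes stayed called lower in KO mice under both other pseudocounts (5 and 0.1), no filter, a filter at a mean of 50, upper-quartile scaling, scaling by the sum without the members, and the replicate block. Alas2 stayed uncalled under these and under each mouse left out.
With each mouse left out, the genotype log2 difference ran from -0.99 to -0.70 for Hbb-bs, -0.92 to -0.61 for Hba-a2, -1.57 to -1.04 for Hbb-bt and -0.75 to -0.48 for Hba-a1, and the largest adjusted p was 0.0497, 0.0599, 0.0647 and 0.0932. The count of genes called, 1907, ran from 694 (without KO-Veh replicate 3) to 2683 (without KO-Mem replicate 3), and fell more than 1.5-fold without WT-Veh replicate 2, any WT-Mem mouse, KO-Veh replicate 3, or KO-Mem replicate 1 or 2. In KO-M/V it was 0 to 97 (97 without KO-Mem replicate 3), in WT-M/V (2) 1 to 3, in Veh-K/W (5) 2 to 53 (53 without KO-Veh replicate 2), in Mem-K/W (12) 2 to 1911 (1911 without KO-Mem replicate 3), and in the interaction 0 to 4. No member was called in KO-M/V in any of these fits, and its log2 difference in Hbb-bs ran from -1.16 to -0.51.
In WT-M/V 1 gene was called with a pseudocount of 5 or 0.1 or the replicate block, and 0 with the filter at 50 or the fit of all 12 mice. In Veh-K/W 3 genes were called with either pseudocount, and 2 with the filter at 50, the replicate block or the joint fit. In Mem-K/W 5 were called with no filter, 4 with the block and 636 with the joint fit. With group means removed, the correlation of Alas2 with Hbb-bs (r = 0.82) and with Hbb-bt (r = 0.79) lost its call. The cause was not tested.
Same-numbered mice did not deviate together (correlations from -0.18 to 0.08), so that no pairing by number was seen. Such correlations cannot exclude a pairing, and the labels do not say what the numbers stand for. The replicate block gave 1825 called genes in the genotype effect and kept the calls of the 4 chains (adjusted p from 0.0246 to 0.0419). Values rest on 3 mice per group, near-identical copies share reads, and no file gives the blood content of a brain.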
